A study of Mus musculus with 8 samples.

Results

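Imprinted genes were followed in the colonic mucosa of mice with and without inhibition of Dnmt1. The set was chosen by name and holds 40 genes of 19 imprinted clusters, of which 34 had a row on the array, in 35 of its 18097 rows, because Peg10 had 2 rows. H19, Meg3, Snrpn, Copg2, Zdbf2 and Zrsr1 had no row under their symbol in the annotation used and are not analysed here. The series asked how inhibition of Dnmt1, the methyltransferase that maintains DNA methylation through cell division, alters gene expression in the colon. The 4 mice were male, aged 157 days and from a strain labelled Mixed (129Sv/B6/D2), and 2 of them carried Dnmt1LO/LO together with TgVillacIGY and 2 carried Dnmt1LO/LO alone. They are called transgenic and control mice here, and all of them share the Dnmt1LO/LO genotype. What the 2 allele names stand for and the promoter that drives the transgene are not stated in the labels. RNA of each mouse was hybridised to 2 arrays, which count as 1 replicate, so n = 2 mice for each genotype.

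An imprinted gene is read mainly or only from the copy inherited from one parent. The choice is set by DNA methylation laid down in the egg or the sperm and copied at every division by Dnmt1 together with the maintenance factor Uhrf1. Loss of that methylation is known to switch some imprinted genes on from both copies and to silence others, because some are held off by the methylated region and others depend on it to keep an opposing RNA or insulator off. Many of these genes act in fetal growth: Igf2 promotes it, Igf2r removes Igf2 from the cell surface, and Cdkn1c restrains division by inhibiting cyclin-dependent kinases. The arrays measure the summed RNA of both parental copies, so the parental origin of a transcript was not measured. In a bulk tissue, fewer cells of a type and less RNA per cell cannot be told apart.

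The promoters of 5 clusters are shown because their CpG dinucleotides, the sites at which Dnmt1 acts, differ widely in number. They are Igf2, Igf2r and Ddc, which are among the detected imprinted genes with the smallest p, and Snurf and Mest, whose promoters are known to lie in methylated imprint regions. Each sequence runs from 250 bases before to 50 bases after a RefSeq transcript start on GRCm38.p6, with each CpG in capitals; where a gene has several starts, the one with the most CpG is shown. The Igf2 promoter is at chr7:142658755-142659054 (minus strand), Igf2r at chr17:12769657-12769956 (minus), Ddc at chr11:11890359-11890658 (minus), Snurf, which is also a promoter of Snrpn, at chr7:60005150-60005449 (minus) and Mest at chr6:30737800-30738099 (plus). Methylation of these sequences was not measured in the data used here.
Igf2: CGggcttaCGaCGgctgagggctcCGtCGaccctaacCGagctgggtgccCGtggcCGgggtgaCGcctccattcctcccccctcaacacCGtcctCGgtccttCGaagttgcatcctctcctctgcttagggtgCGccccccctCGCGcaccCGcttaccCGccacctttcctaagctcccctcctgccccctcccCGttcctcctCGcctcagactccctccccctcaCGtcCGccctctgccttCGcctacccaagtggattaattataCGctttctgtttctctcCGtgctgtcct
Igf2r: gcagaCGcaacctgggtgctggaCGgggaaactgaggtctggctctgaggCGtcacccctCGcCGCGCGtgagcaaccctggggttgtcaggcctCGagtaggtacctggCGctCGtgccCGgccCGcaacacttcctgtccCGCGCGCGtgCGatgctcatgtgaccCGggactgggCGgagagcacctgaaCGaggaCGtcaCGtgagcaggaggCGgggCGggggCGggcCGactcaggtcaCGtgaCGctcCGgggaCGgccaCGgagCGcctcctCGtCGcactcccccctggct
Ddc: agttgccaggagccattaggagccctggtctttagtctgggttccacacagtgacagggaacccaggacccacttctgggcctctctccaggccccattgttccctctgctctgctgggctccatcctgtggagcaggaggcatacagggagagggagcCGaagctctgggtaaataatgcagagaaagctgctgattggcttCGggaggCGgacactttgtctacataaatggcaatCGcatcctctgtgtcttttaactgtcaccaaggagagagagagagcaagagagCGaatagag
Snurf: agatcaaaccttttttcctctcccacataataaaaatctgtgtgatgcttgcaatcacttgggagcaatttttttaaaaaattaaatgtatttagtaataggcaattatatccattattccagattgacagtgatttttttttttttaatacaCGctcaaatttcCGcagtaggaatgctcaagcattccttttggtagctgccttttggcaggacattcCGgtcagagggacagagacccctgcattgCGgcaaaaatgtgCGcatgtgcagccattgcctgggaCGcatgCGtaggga
Mest: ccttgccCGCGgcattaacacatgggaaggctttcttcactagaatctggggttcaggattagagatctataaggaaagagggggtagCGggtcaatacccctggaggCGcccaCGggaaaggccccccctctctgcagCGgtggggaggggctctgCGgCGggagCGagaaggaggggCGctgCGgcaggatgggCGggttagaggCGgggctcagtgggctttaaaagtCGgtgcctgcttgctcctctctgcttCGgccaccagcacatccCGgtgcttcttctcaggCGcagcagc
The Igf2r promoter holds 34 CpG, and 7.73% of the 32851 promoters in the table hold as many. The Igf2 promoter holds 24 (20.0% of all promoters have as many), Mest 17 (31.4%), Snurf 7 (52.1%) and Ddc 5 (62.0%). The 49 promoters of 33 imprinted genes had a median of 17 CpG, against 7 over the whole table. The hexamer TGCCGC, the core of the motif of the imprint-protecting zinc finger protein Zfp57, was searched on both strands; it lies in 15 of the 49 promoters (30.6%) and in 11.6% of all promoters. Some of these promoters overlap, as those of Snurf and Snrpn do, and a match is a description of the letters and not of binding. The hexamer itself holds a CpG, and the part of the higher CpG number of the imprinted promoters in its share was not tested.

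The Dnmt1 transcript was lower in both transgenic mice. The mean raw signal of its probe was 214 and 203 in transgenic mice 1 and 2, against 790 and 665 in control mice 1 and 2. On the normalized log2 scale, on which all levels below are given, this was 7.44 and 6.75, against 9.41 and 9.18. The difference of -2.20 ± 0.28 (SE), 4.60-fold lower, did not pass the threshold over all detected rows (limma, adjusted p = 0.129), and it was -0.64 with background inferred from all rows. Most epithelial markers were detected in this colonic mucosa: 10 of the 11 on the array were tested and 1, Slc26a3, was detected on no array. In transgenic mouse 1 the epithelial markers Car4, Krt20 and Krt19 differed from the control mean by -2.72, -2.33 and -1.21, and in transgenic mouse 2 by -0.039, 0.098 and 0.11. The other tested epithelial markers differed by less in transgenic mouse 1, in both directions. Krt8 (-0.46), Vil1 (-0.25) and Lgals4 (-0.14) were lower there. Krt18 (0.37), Cdh1 (0.16), Cdx1 (0.13) and Cdx2 (0.014) were higher. The summed background-corrected signal of the epithelial markers averaged 117176 in transgenic mouse 1 and 171416 in transgenic mouse 2, against 150044 to 165963 on control arrays. Mean raw signal was lower on the arrays of transgenic mouse 1 (698 and 753) than on those of the other 3 mice (866 to 1080). The SD between mice, taken as a median over detected rows, was 0.215 among transgenic and 0.103 among control mice.

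A minority of the imprinted rows passed the detection filter. A row is called detected on an array at a detection p under 0.01, and a row was tested further when this held on at least 4 of the 8 arrays. This was so for 10 of the 35 imprinted rows (28.6%), against 38.6% of all rows on the array. Of these 10, Cdkn1c, Igf2r, Phlda2, Ddc, Snurf, Impact, Commd1 and H13 were detected on all 8 arrays, Ascl2 on 7 and Igf2 on 6. Grb10 and Dlk1 were detected on 2 arrays each, both arrays of transgenic mouse 1, and the other 23 rows on none, among them 8 whose detection values look like averages over several probes and can miss bright rows. The heat map of levels by array shows these groups.

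**Figure D1:**
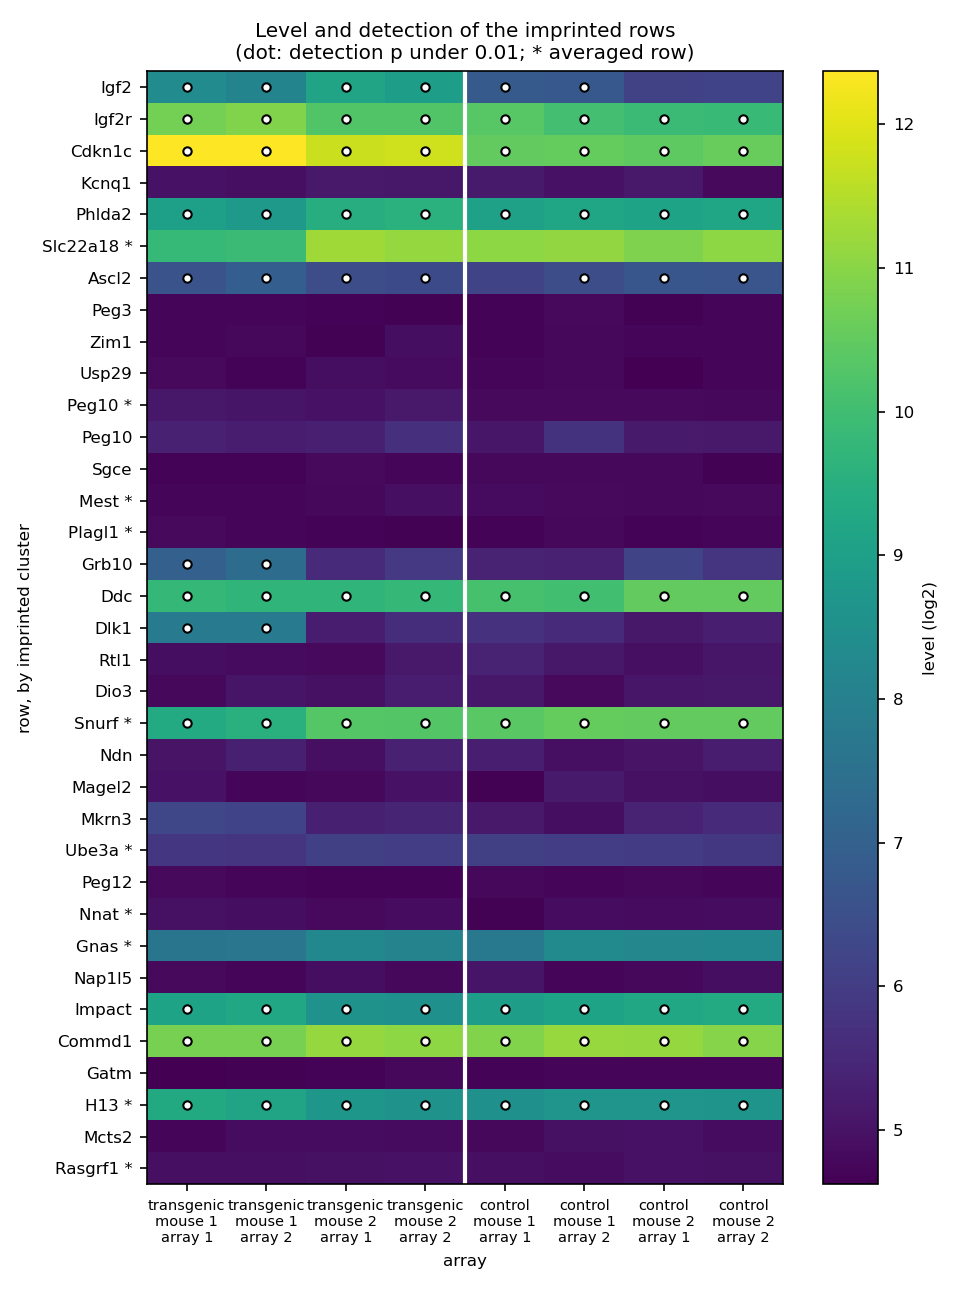
Normalized log2 level (colour) of the 35 imprinted rows on the 8 arrays, with the 4 transgenic arrays left of the 4 control arrays; a dot marks detection p under 0.01 and an asterisk a row whose detection values look like averages over several probes. A total of 23 rows carry no dot, and Grb10 and Dlk1 carry dots on the arrays of transgenic mouse 1 alone.

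Before any detection filter, the imprinted rows did not move in one direction. The change was positive for 17 and negative for 18, with a median of -0.003 (log2), against -0.005 over all 18097 rows. None passed the adjusted threshold (limma, Benjamini-Hochberg over all rows), where 2 of all rows did (0.0111%). At an unadjusted p under 0.05 there were 4 imprinted rows, those of Igf2, Cdkn1c, Ddc and 1 of the 2 rows of Peg10, against a background of 8.42% of all rows. Both transgenic mice were above both control mice in 6 rows (19.3% of all rows) and below them in 5 (20.0% of all rows). The change lay within 0.5 of 0 in 27 of the 35, a smaller share than the 91.4% of all rows.

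Among the 10 tested rows, Igf2 and Cdkn1c had the 2 largest differences, both higher in transgenic mice. Igf2 passed the detection filter through its transgenic arrays alone, and is left out of the counts of rows that differ. No row passed the adjusted threshold, where 9 of 6982 detected rows did (0.129%), and the smallest adjusted p was 0.184. Of the 9 rows other than Igf2, the unadjusted p was under 0.05 for 1, Cdkn1c, against 8.41% of detected rows. Both transgenic mice were above both control mice for Cdkn1c, Igf2r and H13 (3 of 9, background 21.7%) and below them for Ddc and Snurf (2 of 9, background 20.9%). The median change was 0.08 with or without Igf2, against -0.01 over all detected rows. Taken mouse by mouse over all 10, the median was 0.14 for transgenic mouse 1 and 0.06 for transgenic mouse 2.

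**Figure D2:**
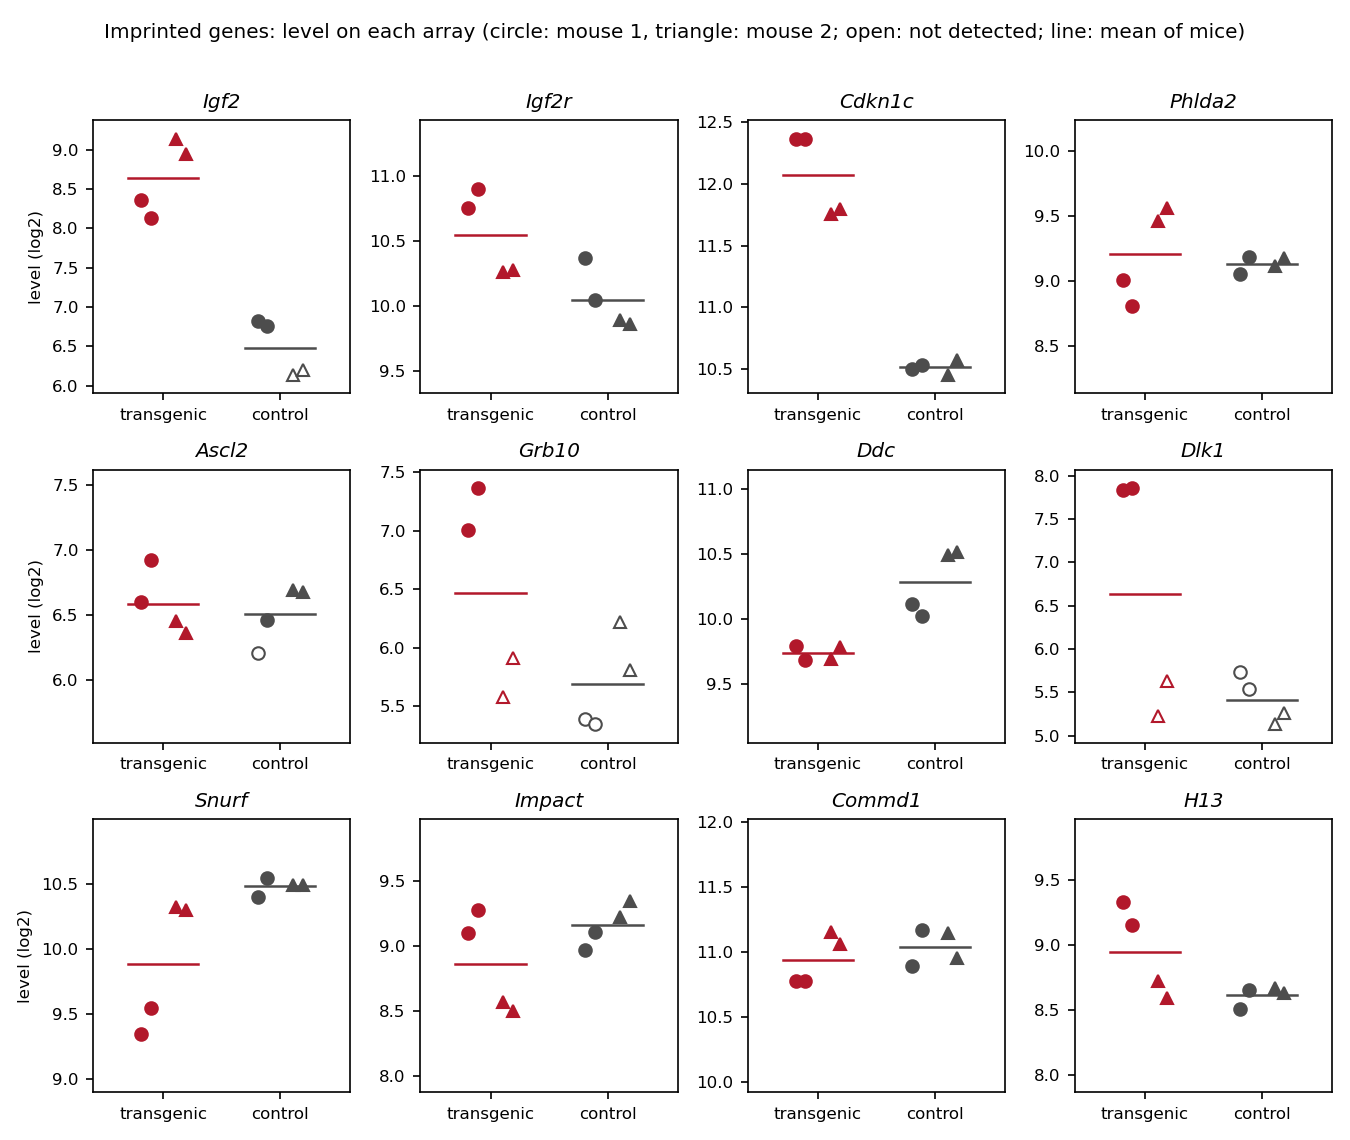
Level (log2) on each array of the 10 tested imprinted genes and of Grb10 and Dlk1, with transgenic mice left of control mice in each panel; circles are mouse 1, triangles mouse 2, open symbols are arrays without detection, and lines are the means of the mice. Cdkn1c and Igf2 lie higher on all 4 transgenic arrays than on every control array, and Dlk1 and Grb10 stand high in transgenic mouse 1.

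The growth factor Igf2, read from the paternal copy, was detected on all 4 transgenic arrays and on 2 of 4 control arrays, both of control mouse 1, so that the transgenic arrays alone let it pass the filter. Raw Igf2 signals of 319 and 307 were measured on the arrays of transgenic mouse 1 and of 724 and 653 on those of transgenic mouse 2, against 187 and 178 in control mouse 1 and 156 and 134 in control mouse 2. The levels were 8.25 and 9.04, against 6.79 and 6.17, and the groups did not overlap. The difference was 2.16 ± 0.36 (SE), with an adjusted p of 0.198 among detected rows and of 0.461 in the fit of all rows (limma). It was smaller where the background was treated otherwise: 0.40 with background inferred from all rows, 1.55 without background correction and 1.54 in the series matrix. The background SD inferred from all rows was 389 to 682 in raw signal over the arrays, against 13.7 to 24.2 in the main fit. Igf2r, the receptor that takes Igf2 to the lysosome and is read from the maternal copy, reached 10.82 and 10.27 in transgenic mice, against 10.21 and 9.88 in control mice. Its difference was 0.51 ± 0.26 (SE, adjusted p = 0.655), and transgenic mouse 2 exceeded control mouse 1 only slightly.

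Cdkn1c, the p57 inhibitor of cyclin-dependent kinases and a maternally read gene of the Kcnq1 cluster, was the brightest imprinted row in both transgenic mice. Raw signals were 3867, 4238, 3970 and 4146 on the 4 transgenic arrays, against 1639, 1536, 1715 and 1464 on the 4 control arrays. Levels were 12.37 and 11.78 in transgenic mice and 10.52 and 10.51 in control mice. The difference was 1.56 ± 0.25 (SE, limma adjusted p = 0.184), and it ran from 1.26 to 1.85 over the 16 alternatives tried. Among all detected rows, 65 had a smaller p than either Cdkn1c or Igf2. Without transgenic mouse 2, which leaves 1 transgenic mouse, the differences were 1.85 for Cdkn1c, 1.77 for Igf2 and -1.03 for Snurf. A RefSeq promoter of Cdkn1c is not shown.

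None of the 4 other listed members of the Kcnq1 cluster stood above the control mice in both transgenic mice. Phlda2, which restrains placental growth, reached 8.91 and 9.51 in transgenic mice, against 9.12 and 9.14 in control mice, a difference of 0.08 ± 0.25 (SE, adjusted p = 0.942). Ascl2, a transcription factor of intestinal stem cells, was at 6.76 and 6.41, against 6.33 and 6.68 (0.08 ± 0.23, adjusted p = 0.934). In both genes the transgenic mice lay on opposite sides of the control mean. The potassium channel gene Kcnq1 was detected on no array. Slc22a18, a transporter, was bright but had no array with detection p under 0.01. Its levels were 9.86 and 11.20 in transgenic mice and 11.09 and 10.96 in control mice, so that transgenic mouse 1 alone was low. The detection values of Slc22a18 and 9 other imprinted rows are not whole steps and look like averages over several probes, although nothing in the labels or headers says so. Of 316 such rows on the array with a mean raw signal over 1000, 114 were detected on fewer than 4 arrays, against 0 of 2509 other rows of that brightness.

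**Figure D3:**
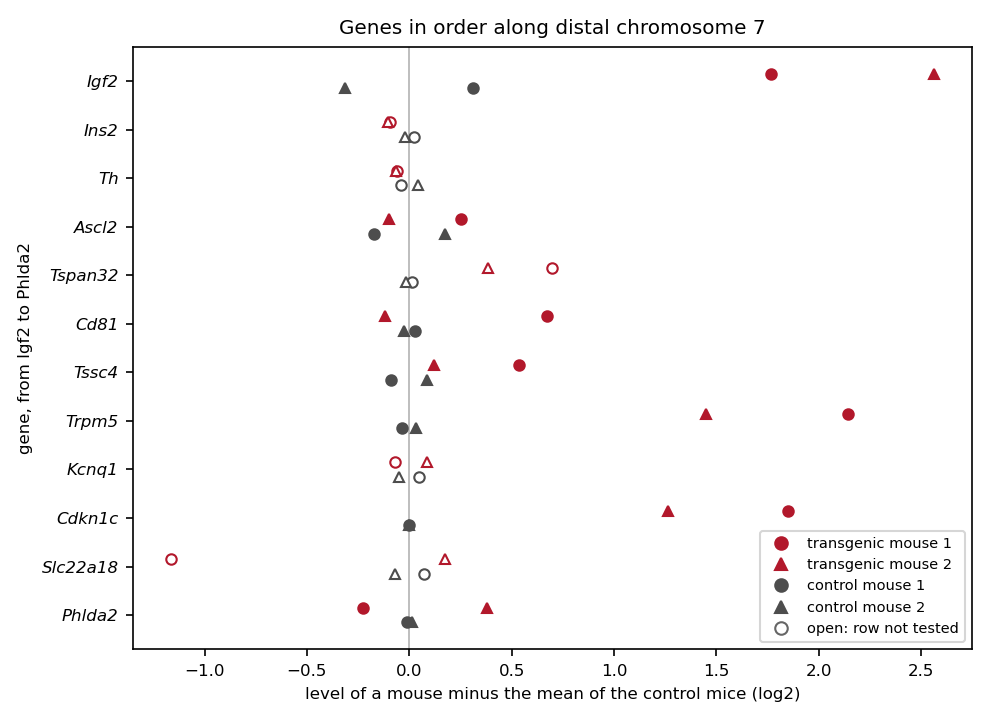
Level of each mouse minus the mean of the control mice (log2) for the 12 genes with a row from Igf2 to Phlda2, in their order along chromosome 7; red symbols are transgenic and grey symbols control mice, circles mouse 1 and triangles mouse 2, and open symbols are untested rows. Igf2, Trpm5 and Cdkn1c stand to the right in both transgenic mice, with genes near the control mean between them.

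Igf2 and Cdkn1c lie in neighbouring domains of distal chromosome 7, whose genes were read in their RefSeq order. Of the 12 rows from Igf2 to Phlda2, 7 were tested and 0 passed the adjusted threshold. Igf2, which passed the detection filter through its transgenic arrays alone, is left out of the next comparison. Among the other tested rows, both transgenic mice were above both control mice for Tssc4, Trpm5 and Cdkn1c (background 21.7%). They were below both control mice in 0 tested rows (background 20.9%). Without a detection filter, 5 of the 12 rows were above (19.3% of all rows) and 2, Ins2 and Th, were below (20.0% of all rows). Trpm5, the cation channel of tuft cells, reached 8.48 and 7.79 in transgenic mice, against 6.31 and 6.38 in control mice (1.80 ± 0.28, adjusted p = 0.175). Tssc4 was at 7.77 and 7.35, against 7.14 and 7.32 (0.33 ± 0.22, adjusted p = 0.709). The tetraspanin gene Cd81 was bright in all mice and overlapped between genotypes (0.28 ± 0.30, adjusted p = 0.813). Ins2, Th and Tspan32 were detected on no array.

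Grb10 and Dlk1 were detected in 1 transgenic mouse and in no control mouse. Dlk1, a membrane ligand related to Notch ligands and read from the paternal copy, had raw signals of 244 and 268 on the arrays of transgenic mouse 1, with 107 and 135 on those of transgenic mouse 2, against 97.2 to 121.9 in the control mice. Its levels were 7.85 and 5.43 in transgenic mice and 5.64 and 5.19 in control mice. The difference of the means was 1.22 under this background correction. Grb10, an adaptor that dampens insulin and growth factor receptors, was at 7.19 and 5.74, against 5.37 and 6.01, a difference of 0.78. Neither gene was detected in transgenic mouse 2, so no lower bound on the fold is given. With background from all rows the Dlk1 and Grb10 differences were 0.11 and 0.056, and without background correction 0.74 and 0.44. In both genes the difference came from transgenic mouse 1: Dlk1 exceeded the control mean by 2.43 in that mouse and by 0.01 in transgenic mouse 2, and Grb10 lay 0.05 above the control mean in transgenic mouse 2. Mkrn3, a ring finger gene of the Prader-Willi region, was at 6.23 and 5.35, against 5.04 and 5.49, and its lowest detection p of 0.01003 lay just outside the threshold.

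Ddc, the decarboxylase that makes dopamine and serotonin and is the neighbour of Grb10, was below the control mice in both transgenic mice. Its levels were 9.74 and 9.74, against 10.07 and 10.51 (-0.55 ± 0.21, SE, adjusted p = 0.595). Snurf, the upstream reading frame of the Snrpn transcript, reached 9.45 and 10.31 in transgenic mice, against 10.47 and 10.50 in control mice (-0.60 ± 0.32, adjusted p = 0.663). Most of that difference came from transgenic mouse 1, whose raw Snurf signals of 560 and 687 lay below every other array (1381 to 1764). The part of that mouse's lower Car4, Krt20 and Krt19 in its Snurf, Slc22a18, Dlk1 and Grb10 values was not tested. The other genes of the Prader-Willi and Angelman region, Ndn, Magel2, Mkrn3, Peg12 and the averaged row of Ube3a, were detected on no array.

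The remaining tested genes differed by at most 0.34, and none passed the test. H13, a signal peptide peptidase whose intron holds the imprinted retrogene Mcts2, reached 9.24 and 8.66 in transgenic mice, against 8.58 and 8.65 in control mice (0.34 ± 0.25, SE, adjusted p = 0.728), so that transgenic mouse 2 lay level with control mouse 2. Impact, a regulator of translation under stress, was at 9.19 and 8.54, against 9.04 and 9.29 (-0.30 ± 0.28, adjusted p = 0.785). Commd1, which acts in copper handling and protein trafficking, was at 10.77 and 11.11, against 11.03 and 11.05 (-0.10 ± 0.19, adjusted p = 0.890). Its 95% interval, -0.60 to 0.40, allows a moderate change either way.

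Of the 23 rows detected on no array, 15 had whole-step detection values, with raw signals of 60.2 to 137.9. They were Kcnq1, Peg3, Zim1, Usp29, 1 row of Peg10, Sgce, Rtl1, Dio3, Ndn, Magel2, Mkrn3, Peg12, Nap1l5, Gatm and Mcts2, many of them genes of the embryo, placenta or brain. Their levels per mouse lay between 4.64 and 6.23. The other 8, Slc22a18, Gnas, Ube3a, Mest, Plagl1, Nnat, Rasgrf1 and 1 row of Peg10, were averaged rows with raw signals of 66.3 to 2830.6, so that non-detection does not bound them in the same way. Gnas, which encodes the stimulatory G protein alpha subunit, reached 7.65 and 8.18 in transgenic mice, against 8.03 and 8.23 in control mice. The averaged Peg10 row was at 5.09 and 5.07, against 4.82 and 4.81, a difference near the background of the array.

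**Figure D4:**
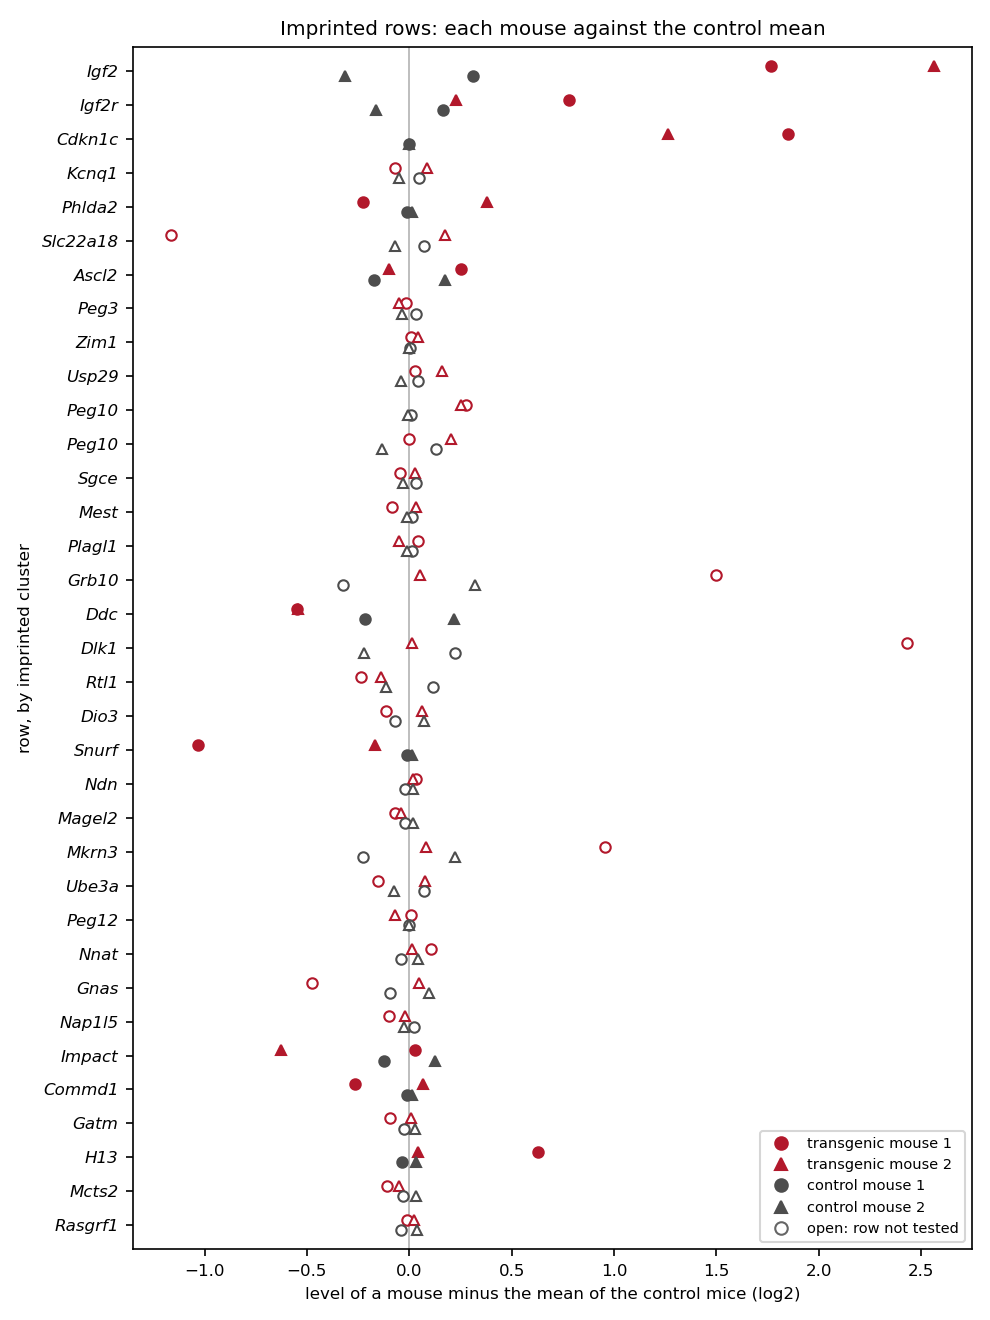
Level of each mouse minus the mean of the control mice (log2) for all 35 imprinted rows, grouped by cluster; red symbols are transgenic and grey symbols control mice, circles mouse 1 and triangles mouse 2, and open symbols are untested rows. Igf2 and Cdkn1c lie far to the right in both transgenic mice, Dlk1 and Grb10 in transgenic mouse 1 alone, and Snurf and Slc22a18 lie to the left in transgenic mouse 1.

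By the parental copy read where the gene is imprinted, 12 rows are maternal, 22 paternal and 1, Gnas, mixed. Ddc, Ube3a and Gatm are counted by a copy known for some tissues only. Without a detection filter the change was positive in 8 of the 12 maternal rows, with a median of 0.05, and in 9 of the 22 paternal rows, with a median of -0.017, so that both medians lay near 0. These medians rest largely on background rows, as 5 of the 12 maternal and 17 of the 22 paternal rows were detected on no array. Detection left 6 maternal and 4 paternal rows to test, with medians of 0.21 and -0.42, against -0.01 over all detected rows. The 4 paternal rows include Igf2, which passed through its transgenic arrays alone, and Ddc.

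Genes around the imprinted set were counted in the same fit. Of 40 further imprinted genes with a row, 15 were tested and 0 called. Both transgenic mice were above both control mice for 2 of the 15 (background 21.7%) and below them for 7 (background 20.9%). Qpct, 1 of the 7, was detected on 4 control and 2 transgenic arrays, so that the control arrays alone let it pass the filter. The median change of the 15 was -0.12, against -0.01 over all detected rows. Qpct reached 5.65 and 7.33 in transgenic mice, against 7.73 and 8.94 in control mice (-1.84 ± 0.69, SE, adjusted p = 0.581). Dcn, a proteoglycan gene of that list and a fibroblast marker, was not tested, with detection on 1 control array. Its averaged row was at 5.48 and 5.07, against 7.67 and 7.11. No bound on the fold is given, because non-detection does not bound averaged rows in the same way. Of 20 genes of imprint maintenance, 7 were tested, 0 were called and Dnmt1 alone of these 7 had an unadjusted p under 0.05. Uhrf1, whose averaged row did not meet the detection filter, was at 10.78 and 10.40, against 9.78 and 9.48, a difference of 0.96 with an adjusted p of 0.494 in the limma fit of all rows. Trim28, the co-repressor that Zfp57 recruits, was at 12.03 and 11.53, against 11.34 and 11.09 (0.57 ± 0.24, adjusted p = 0.622). Of 20 genes of the Igf pathway, 6 were tested and 0 called, and the receptor gene Igf1r was never detected. Igfbp4, a binding protein that holds Igf away from its receptor, was at 9.18 and 7.43, against 7.10 and 6.28 (1.62 ± 0.65, adjusted p = 0.606). Of 16 genes of the Cip/Kip family and the G1 phase, the setting in which Cdkn1c acts, 10 were tested and 0 called. Both transgenic mice were above both control mice for 4 of the 10 (background 21.7%) and below for 2 (background 20.9%). Mcm2, a helicase subunit loaded before replication, was at 9.58 and 9.19, against 8.68 and 8.50 (0.80 ± 0.21, adjusted p = 0.425).

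Markers of other cell types were measured beside Igf2 and Cdkn1c. Of the 5 tested tuft cell markers, 0 were called. Alox5, 1 of the 5, was detected on the transgenic arrays alone, so the filter let it pass through them. The others, Dclk1, Trpm5, Gng13 and Kctd12, were above both control mice in both transgenic mice (background 21.7% of detected rows). The median change over all 5, Alox5 included, was 1.80. The summed background-corrected signal of the 8 tuft markers on the array was 2310 to 3234 on transgenic and 716 to 849 on control arrays; Pou2f3 and Il25 were never detected. Of 12 fibroblast markers 0 were tested, and 7 of the 8 with whole-step detection values were never detected, among them Col1a1, Col1a2, Pdgfra and Lum. Of the averaged rows, Dcn was lower, as given above, and Fbln1 was at 8.02 and 7.28, against 6.16 and 5.60, with detection on no array. The fibroblast markers had sums of 303 to 440 on transgenic and 331 to 494 on control arrays. Of 7 smooth muscle markers, Smtn was tested (0.90 ± 0.24) and 5 of 5 with whole-step values, among them Myh11, Tagln and Des, were never detected; the sums were 436 to 643, against 283 to 358. Of 7 endothelial markers with whole-step values, 6 including Cdh5 and Kdr were never detected. Vwf was at 11.08 and 10.20, against 7.70 and 7.65 (2.96 ± 0.33, limma adjusted p = 0.0975). The endothelial sums, mostly Vwf, were 1251 to 2347, against 271 to 330. Of 8 leukocyte markers, 3 were tested and 0 called, in both directions: Cd74 was at 12.15 and 11.56, against 9.83 and 9.87, while the T cell genes Cd3e (5.95 and 6.85, against 7.41 and 7.40) and Cd3d (a difference of -0.99 ± 0.24, SE) lay below the control mice in both transgenic mice. The median of the 3 was -0.99, and the sums, mostly Cd74, were 3227 to 4987, against 1142 to 1343. For the 12 enteroendocrine markers, of which 11 were tested, the sums averaged 44457 on the arrays of transgenic mouse 1 and 20613 on those of transgenic mouse 2, against 17637 to 22431 on control arrays. These sums were mostly Pyy, Sct, Insl5 and Gcg. The change was positive for 6 of the 11 and negative for 5, with a median of 0.97 in transgenic mouse 1 and -0.78 in transgenic mouse 2. Cck, 1 of the 6, was detected on the transgenic arrays alone. Of 10 stem cell markers 3 were tested and 0 called, and both transgenic mice were above both control mice for 2 of the 3 (background 21.7%). Among markers with whole-step values, 5 of 5 of neuron and glia and 5 of 6 of adipocytes were detected on no array. The part of these markers in the values of the imprinted genes was not tested.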

How the data were processed

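Total RNA of colonic mucosa from 4 mice was measured on Illumina MouseRef-8 v2.0 BeadChips, 2 arrays per mouse. The deposited table holds intensity values, not normalized between arrays, as its values show, and a detection value as a fraction, which rises with the signal and was read as 1 minus the detection p. The authors' series matrix holds log2 values, which lie within 0.023 of the raw table after log2 and quantile normalization. Per the submitters' processing notes, BeadStudio and Partek were used; no version is given there.

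Background was corrected by limma's normexp (offset 16), with its mean and SD inferred from the 13920 rows whose detection values are whole multiples of 1/798; the other 4177 rows were kept but not used for this. Values were quantile normalized, and the 2 arrays of a mouse averaged. limma 3.58.1 (lmFit, eBayes; R 4.3.3; statmod 1.5.0 for random effects) compared 2 with 2 mice, two-sided, with Benjamini-Hochberg adjustment over all rows or over the 6982 rows detected on at least 4 arrays, at 0.05. Changes are transgenic minus control, on a scale with an offset that understates changes of dim rows. The number of mice and arrays limits the precision. Array numbers carry no pairing between mice; a fit with them as a replicate block is in the closing section.

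Genes were named through the platform annotation. Imprinted rows were named by detection; other lists by up to 4 genes with the smallest p. The members and lists were chosen with earlier results of these data known. Igfbp4, Qpct, Trim28, Mcm2, Vwf and Smtn follow that rule; Uhrf1, Dcn and Fbln1 were named after their values were seen; genes of distal chromosome 7 were taken by position. Alternatives covered background, offset, scaling, the series matrix, arrays as samples, detection filters and each mouse left out.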

Additional observations from a re-analysis of the deposited data

Results flagged for a closer look

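Of the 4 control arrays, array 1 of control mouse 1 gave a Dnmt1 level of 9.63, while the other 3 lay between 9.14 and 9.22, a gap that is large against the range of the group. Chance puts about 1 in 20 groups beyond that limit.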

How the results depend on the processing

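Over all 18097 rows 2 were called, and over the 6982 detected rows 9. Without a filter the count was 0 with background from all rows (1085 rows at an unadjusted p under 0.05, limma) and 0 with an offset of 50 (1467), 4 without background correction and with series matrix values, and 5 with median scaling and with array 2 alone. Among detected rows it was 0 with background from all rows (555 at an unadjusted p under 0.05) and 1 among rows detected on all 8 arrays. With the 8 arrays as samples and the mouse as a random effect, 389 rows were called without a filter and 185 detected rows. Such fits count technical arrays as degrees of freedom. Of the imprinted rows, 2 were called, Cdkn1c and Igf2, of which Igf2 passed the detection filter through its transgenic arrays alone. An unadjusted p under 0.05 was reached by 4 imprinted rows, against 955 of the 6982 detected rows. Dnmt1 (-2.20) passed with a limma adjusted p of 0.00547. With the replicate block of array numbers added, the counts were 259, 137, 2 and 4, and 843 detected rows had an unadjusted p under 0.05. Dnmt1 (-2.20) then had a limma adjusted p of 0.0143. The array numbers mark technical arrays and pair no mice. With background from all rows the Dnmt1 change was -0.64, and Dlk1 and Grb10 were at 0.11 and 0.056, against 1.22 and 0.78. The background SD in that setting was 389 to 682 in raw signal, against 13.7 to 24.2 from whole-step rows. The median change of detected imprinted rows, 0.08, was -0.011 among rows detected on all 8 arrays and 0.21 among those detected on at least 1.

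Leaving out 1 mouse leaves 1 mouse in its genotype, which is then assumed to vary like the other genotype. Calls then ran from 0 to 252 without a filter and from 0 to 850 among detected rows (without control mouse 1 or 2 both counts were 0, with 1024 and 516 rows at an unadjusted p under 0.05 without a filter and 332 and 199 among detected rows), imprinted calls from 0 to 3 and those at an unadjusted p under 0.05 from 2 to 5. The highest values came without transgenic mouse 2. The median over imprinted rows ran from -0.018 to 0.035 without a filter and from -0.016 to 0.17 among detected rows, and the Dnmt1 change from -2.55 to -1.86. Changes of sign occurred for Ascl2 (-0.10 to 0.25), Commd1 (-0.27 to 0.067), Gnas (-0.48 to 0.046), Slc22a18 (-1.16 to 0.18), Ube3a (-0.15 to 0.075), Impact (-0.63 to 0.027) and Phlda2 (-0.23 to 0.38), all small or untested changes. Igf2, Cdkn1c, Igf2r, H13, Ddc, Snurf, Dlk1 and Grb10 kept their direction under every alternative that gave them a value. The cause of these shifts was not tested. Signal near background limits Igf2, Ascl2, Dlk1 and Grb10.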
